A study of Mus musculus with 21 samples.

Results

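The Wnt ligands, receptors and inhibitors described here are the mouse genes whose symbols name them as Wnt ligands, Frizzled (Fzd) receptors, the co-receptors *Lrp5* and *Lrp6*, the Lgr receptors, R-spondins (Rspo), secreted inhibitors (Sfrp, *Frzb*, Dkk, *Wif1*, *Notum*), Axin and Nkd feedback proteins, or the Tcf7 and *Lef1* transcription factors. The rule is by symbol. They were 54 of the 26852 genes measured. In the gene annotation 58 symbols fit these names, and *Dkk4*, *Wnt3a*, *Wnt8a* and *Wnt9b* were not analysed here because the data hold no value for them. Of the 54, 40 passed a filter on low values, which required a mean log2 value of 3.32 or more over the 21 libraries (the log2 of 10 counts). The other 14 (*Dkk2*, *Dkkl1*, *Fzd10*, *Rspo1*, *Sfrp5*, *Wnt1*, *Wnt10a*, *Wnt10b*, *Wnt2*, *Wnt3*, *Wnt6*, *Wnt7a*, *Wnt7b* and *Wnt8b*) lay below it and were not tested, so counts below refer to the 40 and not to the whole family.

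The study asked how human acute myeloid leukemia (AML) changes the bone-marrow microenvironment of the mouse that carries it. HL60 and ML1, established human AML cell lines, carried a secreted, lipid-permeable mCherry protein (sLP-mCherry) that nearby host cells take up, so that host cells close to leukemia (ch+) could be sorted apart from host cells that took up none (ch-). Host mesenchymal cells with low Nestin-GFP signal (Nes low) were sorted from bone marrow, and their RNA was sequenced as bulk libraries. The labels give no batch, no date, no pairing of ch+ with ch- libraries, and no statement that libraries come from separate animals, so p-values measure a spread among libraries that may be partly technical. By the methods of the study ch+ and ch- cells came out of shared marrows, but no label says which libraries belong together, so these groups were tested as if independent.

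All 7 groups came from Nestin+ NSG mice, immunodeficient animals that lack B, T and NK cells, and each had 3 libraries. The ctrl hosts were unengrafted (libraries 373, 374 and 375). HL60 hosts sampled early gave ch- (527, 528, 529) and ch+ cells (523, 524, 525), and HL60 hosts sampled late in the disease gave cells with no cherry sort (397, 398, 399). ML1 hosts gave early ch- (543, 544, 546), early ch+ (538, 539, 541) and late cells (581, 582, 583) in the same way. Transplantation was at 8 to 12 weeks of age without conditioning, and the labels give no day for early or late, which stand for low and high engraftment. As models, each leukemia is 1 cell line in a host without lymphocytes, Nestin-GFP reports activity of the Nestin promoter of a transgene, and late cells were not divided by contact with leukemia.

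Wnt ligands are lipid-modified secreted proteins that bind a Frizzled receptor together with Lrp5 or Lrp6, which stabilizes beta-catenin and lets it act with Tcf and Lef proteins on target genes. R-spondins, through Lgr receptors, keep Frizzled at the cell surface, while Sfrp, Dkk, Wif1 and Notum proteins hold back the ligand or its co-receptor outside the cell. Axin and Nkd proteins dampen the signal inside it. In bone marrow the pathway is best known for promoting osteoblast formation and bone mass, and for steering mesenchymal progenitors between bone, cartilage and fat.

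Values are the deposited log2 normalized counts, to which every level and difference below refers unless another scale is named. They had been regularized, a step that pulls low counts toward the mean of the gene, so levels near the floor of a gene and differences there are compressed. The summed signal of a library, after reversing the log2, in units of 1000, was 11900 to 14200 in ctrl, 12300 to 13600 and 11200 to 12600 in HL60 ch- and ch+, 13800 to 14700 and 12300 to 12600 in ML1 ch- and ch+, 8410 to 9020 in late HL60 and 7260 to 7460 in late ML1. Read totals are not part of the data. Rescaling each library to 1 common total therefore shifted the median difference of all tested genes from ctrl, to 0.58 in late HL60, 0.84 in late ML1, 0.12 in HL60 ch+ and -0.11 in ML1 ch-, to 0.11 (HL60) and 0.16 (ML1) for ch+ against ch-, and to -0.24 for late HL60 against late ML1. On the deposited scale the same medians lay close to 0, and differences below are relative to that.

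The Nes low mesenchymal label was checked against its markers. In ctrl *Cxcl12* averaged 15.19 ± 0.35 (SD over 3 libraries), *Lepr* 12.60 ± 0.42 and *Kitl* 10.05 ± 0.20, and *Nes* itself stood at 7.39 ± 0.24, so the defining genes were present. The extraction text in the labels speaks of sorted CD31+ endothelial cells, in conflict with the Nes low label. The summed signal of endothelial markers in ctrl was 0.765, 0.642 and 0.784 in units of 1000, compared with 76.4, 50.2 and 58.2 for Nes low mesenchymal markers, and the label was kept. In the same ctrl libraries osteoblast and osteocyte markers summed to 1900, 2080 and 2570 and chondrocyte markers to 227, 128 and 161. Both sums exceeded that of the Nes low mesenchymal markers, so the check bears on the endothelial text and not on purity. Levels of these, smooth muscle and blood markers in every group are given further down. One treatment field calls the late ML1 libraries unengrafted, although their titles and time point call them late. Over all genes their Pearson r was 0.969, 0.961 and 0.967 with the late HL60 mean and 0.916, 0.903 and 0.911 with the ctrl mean, values across genes, which are not independent, and they are treated as late ML1.

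Each comparison was tested with limma across 12976 genes, and a gene is said to have risen, fallen or been called when its Benjamini-Hochberg adjusted p was under 0.1. After a difference ± is the standard error of the fit, and after a level it is the SD over the 3 libraries of a group. In these bulk libraries fewer cells that express a gene and less RNA per cell cannot be told apart. Against ctrl, late HL60 cells had 17 of 40 members called, 9 higher and 8 lower (42.5%, with 13.7% of all tested genes called). Late ML1 cells had 19 called, 6 higher and 13 lower (47.5%, against 22% of all genes). The median absolute difference was 0.69 over the members and 0.33 over all tested genes in late HL60, and 0.81 and 0.39 in late ML1. Rescaling to library totals turned the late HL60 split into 22 higher and 4 lower and the late ML1 split into 19 higher and 6 lower. Of the 12976 genes 5527 were then called in late HL60 and 8781 in late ML1. In late ML1 the share of members called thus no longer exceeded that of all genes. Called genes as a whole went from 47.1% to 93.1% higher in late HL60 and from 45% to 93.1% in late ML1. The direction of the late changes as a group therefore depends on the scaling, and the reason for the smaller summed signal of late libraries was not tested.

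Early ch+ cells had fewer calls. HL60 ch+ cells differed from ctrl in 5 members, 2 higher and 3 lower (5.33% of all genes called), and ML1 ch+ cells in 6, 3 higher and 3 lower (6.69% of all genes). Without ctrl 374, ctrl 375 or HL60 ch+ 525 the HL60 count was 3, and the ML1 count was 1 without ML1 ch+ 538 and 2 without ML1 ch+ 539, ctrl 374 or ctrl 375. The HL60 split was 2 and 2 after rescaling to library totals. The ML1 split was 4 higher and 1 lower after rescaling and 3 and 1 after quantile normalization. No member was called by limma in HL60 ch- cells (1.57% of all genes called), where 8 members had an unadjusted p under 0.05 and the lowest adjusted p was 0.116. In ML1 ch- cells 2 were called, both higher (2.34% of all genes), with 0 without ctrl 374 and 1 without ctrl 375 or any 1 of the ML1 ch- libraries. Between ch+ and ch- cells 3 members differed in HL60 hosts (3.92% of all genes called) and 3 in ML1 hosts (4.25%), in each 1 higher and 2 lower in ch+. These last comparisons share no library with each other, and *Rspo4* and *Sfrp1* were called in both. The overlap among all called genes is not given here, so this count has no reference. The comparisons with ctrl share the same 3 ctrl libraries, so likeness between them is not independent evidence.

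The leukemias were also compared directly. Late HL60 cells differed from late ML1 cells in 8 members, each of them higher in HL60 (4.09% of all genes called, 410 of 531 of those higher in HL60). Without 1 library the count was 3 (late ML1 582 or 583), 4 (late HL60 397 or 399), 5 (late HL60 398) or 6 (late ML1 581). After rescaling to library totals it was 2, both higher in HL60, while 37% of 705 called genes were higher in HL60, so the main direction over all genes turned with the scaling. Early ch+ cells differed between the leukemias in 0 members (0.0154% of all genes called) and early ch- cells in 0 (0.0539%) by limma, with 1 and 8 members at an unadjusted p under 0.05. The ch+ minus ch- difference was compared between leukemias in the same way, with 0 members called (0.00771% of all genes) and 2 at an unadjusted p under 0.05. A call in only 1 leukemia is thus not by itself a difference between them, and the direct test is given where it matters.

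**Figure D1:**
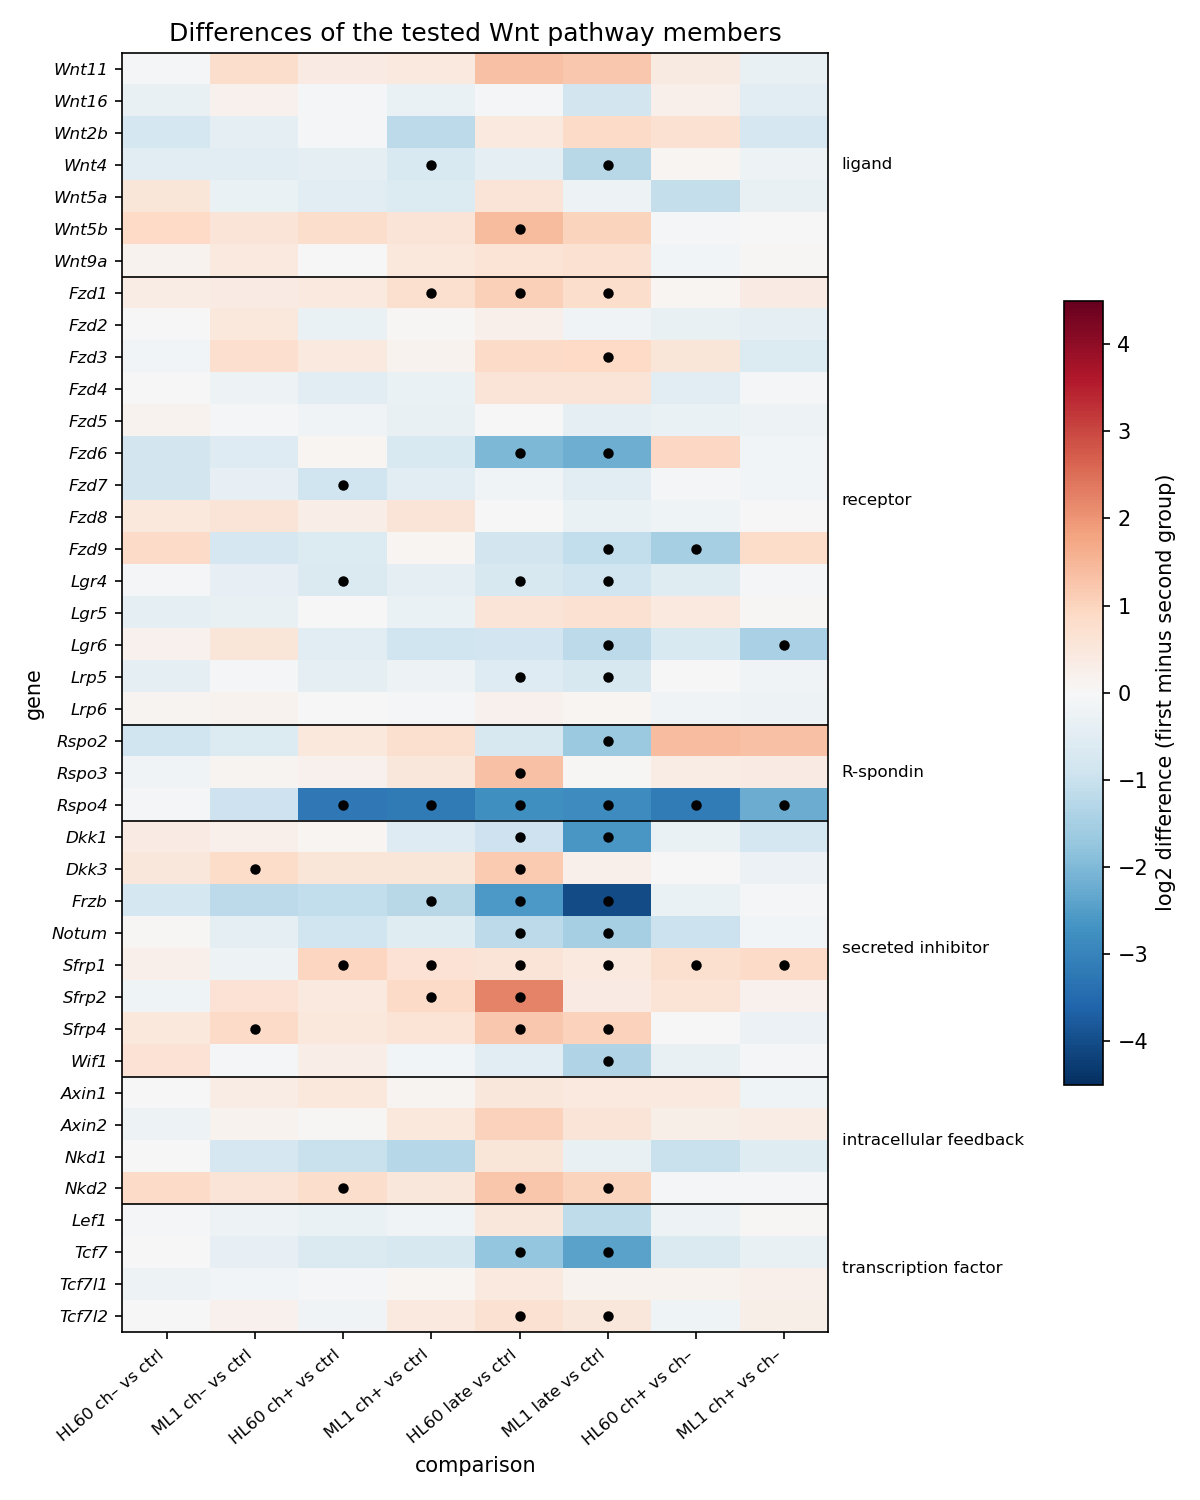
Log2 difference (colour, from -4.5 to 4.5) of the 40 tested members, ordered by role, in the 6 comparisons with ctrl and the 2 comparisons of ch+ with ch-; a black dot marks a call at adjusted p under 0.1. The late columns hold 17 and 19 dots and the HL60 ch- column 0.

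Ligands made up 16 of the 54 genes, but 7 passed the filter and 2 were called in any of the 8 comparisons shown in that heat map. Below the filter, *Wnt10b* had the highest level of the 9, 2.26 ± 0.30 in ctrl, and *Wnt10a* and *Wnt7a* sat at their floor in most libraries. Per kilobase of the longest annotated transcript, *Wnt4* was the most abundant ligand in ctrl, at a log2 level of 7.45 ± 0.12 per kb, ahead of *Wnt5a* at 4.57 ± 0.16. With the median transcript length *Wnt4* still led, at 7.45 ± 0.12 against 7.05 ± 0.16. *Wnt4* (ENSMUSG00000036856, chr4:137277489-137299726, + strand, build GRCm38) encodes a ligand that can act through beta-catenin or without it. *Wnt4* read 9.58, 9.39 and 9.60 in ctrl, 8.74, 9.20 and 9.16 in HL60 ch-, 9.50, 8.88 and 8.997 in HL60 ch+ and 8.93, 9.15 and 9.17 in late HL60. The ML1 hosts gave 9.14, 8.45 and 9.56 in ch-, 8.50, 9.04 and 8.97 in ch+ and 8.38, 8.29 and 8.17 in late libraries. The late ML1 libraries were the lowest of all 21 and lay apart from ctrl, and HL60 ch-, ML1 ch+ and late HL60 libraries also lay below each ctrl library. *Wnt4* fell in late ML1 by 1.24 ± 0.23 (adjusted p 0.000141), a call that ended on rescaling to library totals (-0.42). The difference in ML1 ch+ was -0.69 ± 0.23 (adjusted p 0.0877) and depended on every library of the comparison, as it was no longer called without ctrl 373, 374 or 375 or ML1 ch+ 538, 539 or 541 (-0.79 to -0.52, adjusted p 0.101 to 0.3, also lost under no filter, quantile normalization, rescaling to library totals, a fit of the compared groups alone and a threshold of 0.05). In late HL60 it was -0.44 ± 0.23 (adjusted p 0.268), not called, and in HL60 ch+ -0.40 ± 0.23 (adjusted p 0.417), where the direct test of HL60 against ML1 ch+ cells gave 0.29 ± 0.23 (adjusted p 0.823).

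*Wnt5b*, a ligand mostly linked to signalling without beta-catenin, read 3.66, 4.74 and 4.47 in ctrl, 6.30, 5.43 and 5.38 in late HL60 and 4.85, 5.49 and 5.50 in late ML1. Each late library of both lines was above each ctrl library. So were the HL60 ch+ libraries, at 5.21, 5.12 and 4.91, while the other early groups overlapped ctrl, with HL60 ch- 527 at 6.03. The rise in late HL60 was 1.41 ± 0.43 (adjusted p 0.0294), lost (no longer called) without ctrl 373 or late HL60 397 (1.10 to 1.11, adjusted p 0.156 to 0.177). Late ML1 minus ctrl was 0.99 ± 0.43 (adjusted p 0.12), not called, and late HL60 minus late ML1 was 0.42 ± 0.43 (adjusted p 0.895), not called either. The other 5 tested ligands (*Wnt2b*, *Wnt5a*, *Wnt9a*, *Wnt11*, *Wnt16*) had no call in the 8 comparisons. *Wnt5a* was -1.07 ± 0.36 (adjusted p 0.132) between ch+ and ch- cells of HL60 hosts, with all 3 ch+ libraries below the ch- ones but short of the threshold. Annotated ligand genes form neighbouring pairs, *Wnt6* beside *Wnt10a* on chromosome 1 (6194 bases apart) and *Wnt10b* beside *Wnt1* on chromosome 15 (11707 bases apart), and all 4 were below the filter.

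Receptors and co-receptors numbered 15, of which 14 passed the filter, all but *Fzd10*. 8 were called in at least 1 of the 8 comparisons. Per kilobase of the longest transcript *Lrp5* was highest in ctrl, at a log2 level of 7.77 ± 0.20 per kb, followed by *Lgr4* at 7.41 ± 0.18 and *Fzd5* at 7.40 ± 0.23, of which *Lrp5* exceeded both others in each ctrl library and *Lgr4* and *Fzd5* did not differ beyond their spread. With median transcript lengths *Lrp6* read 9.02 ± 0.06 and *Lrp5* 8.93 ± 0.20, within their spread, so the place of *Lrp6* depends on the isoform taken. *Fzd6* (ENSMUSG00000022297, chr15:39006034-39038188, + strand) encodes a Frizzled receptor best known from planar cell polarity. *Fzd6* read 6.12, 5.12 and 5.27 in ctrl, 4.57, 4.55 and 4.90 in HL60 ch-, 6.38, 5.04 and 5.37 in HL60 ch+ and 3.42, 3.89 and 3.10 in late HL60. With ML1 as the leukemia, it read 4.79, 5.37 and 4.64 in ch-, 5.11, 5.13 and 4.20 in ch+ and 3.72, 3.10 and 3.10 in late libraries. The 6 late libraries were the lowest of all 21 for this gene, with no overlap with ctrl or any early group. *Fzd6* fell by 2.03 ± 0.42 in late HL60 (adjusted p 0.00106) and fell by 2.20 ± 0.42 in late ML1 (adjusted p 0.000219). Both calls held without each library in turn and under each other setting that tested the gene, but the filter at 50 counts left *Fzd6* out. Calls written below as kept throughout held without each library and under no filter, the filter at 50 counts, both other scalings, a fit of the compared groups alone and a threshold of 0.05. Rescaling to library totals moved late differences from ctrl upward (median of all tested genes 0.58 in HL60 and 0.84 in ML1). A late rise could therefore hardly be lost under that setting, which is a check for late falls only. HL60 ch- libraries also lay below ctrl, at -0.83 ± 0.42 (adjusted p 0.491), which was not called.

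*Fzd1* (ENSMUSG00000044674, chr5:4753839-4758035, minus strand) encodes a Frizzled receptor that can signal through beta-catenin. *Fzd1* read 8.83, 8.47 and 9.64 in ctrl, 9.31, 9.08 and 9.58 in HL60 ch-, 9.11, 9.39 and 9.78 in HL60 ch+ and 9.78, 10.47 and 9.91 in late HL60. In ML1 hosts the libraries read 9.49, 9.48 and 9.02 in ch-, 9.76, 9.81 and 9.55 in ch+ and 9.46, 10.16 and 9.74 in late. Late HL60 libraries were above each ctrl library, whereas ctrl 375 reached into the range of late ML1 and both ch+ groups. The rise was 1.07 ± 0.25 (adjusted p 0.00305) in late HL60, kept throughout, and 0.80 ± 0.25 (adjusted p 0.0201) in late ML1, lost without ctrl 374 or late ML1 582 (0.55 to 0.62, adjusted p 0.147 to 0.168). In ML1 ch+ it was 0.73 ± 0.25 (adjusted p 0.0952), and no longer called without ctrl 373 or 374 or ML1 ch+ 538, 539 or 541 (0.47 to 0.80, adjusted p 0.113 to 0.387, also lost under no filter, a fit of the compared groups alone and a threshold of 0.05). HL60 ch+ cells gave 0.45 ± 0.25 (adjusted p 0.385), and the direct test between ch+ groups gave -0.28 ± 0.25 (adjusted p 0.859). *Fzd9* (ENSMUSG00000049551, chr5:135248938-135251230, minus strand), a receptor that osteoblasts use in bone formation, was low throughout. *Fzd9* read 4.09, 4.61 and 4.13 in ctrl, 4.72, 5.22 and 5.49 in HL60 ch-, 4.18, 3.44 and 3.33 in HL60 ch+ and 2.98, 4.42 and 2.92 in late HL60. For ML1 the values were 3.64, 3.87 and 3.01 in ch-, 4.30, 5.07 and 3.69 in ch+ and 3.01, 2.96 and 3.57 in late. Its 2 highest values were in HL60 ch-, where all 3 libraries exceeded the HL60 ch+ ones. Late ML1 and ML1 ch- libraries lay below each ctrl library, the latter not called, and late HL60 overlapped ctrl. Late HL60 averaged 3.44 ± 0.85, with 4.28 ± 0.29 in ctrl and 3.18 ± 0.34 in late ML1. It was called neither against ctrl nor against late ML1. The difference between ch+ and ch- in HL60 hosts was -1.49 ± 0.43 (adjusted p 0.0575), lost without HL60 ch+ 524 or 525 or HL60 ch- 528 or 529 (-1.45 to -1.32, adjusted p 0.183 to 0.204, also lost under no filter and a threshold of 0.05). In late ML1 it was -1.10 ± 0.43 (adjusted p 0.0804), lost without ctrl 373, 374 or 375 or late ML1 581 or 582 (-1.19 to -0.93, adjusted p 0.102 to 0.225, also lost under no filter, rescaling to library totals and a threshold of 0.05), with -0.28 after the rescaling. In ML1 hosts ch+ minus ch- had the other sign, 0.84 ± 0.43 (adjusted p 0.389), and was not called, and the test of the ch+ minus ch- difference between leukemias gave -2.34 ± 0.61 (adjusted p 0.527) with an unadjusted p of 0.000635, which did not pass the adjustment.

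*Lgr4* (ENSMUSG00000050199, chr2:109917647-110014257, + strand) encodes an R-spondin receptor. *Lgr4* read 9.57, 9.75 and 9.92 in ctrl, 9.57, 9.81 and 9.55 in HL60 ch-, 9.35, 8.74 and 9.24 in HL60 ch+ and 9.15, 9.03 and 8.87 in late HL60. The ML1 hosts gave 9.24, 9.38 and 9.54 in ch-, 9.63, 9.12 and 9.29 in ch+ and 8.87, 8.82 and 8.85 in late libraries. Late libraries of both lines, the HL60 ch+ libraries and the ML1 ch- libraries (not called) were below each ctrl library, and ML1 ch+ overlapped ctrl. The difference was -0.73 ± 0.18 (adjusted p 0.00717) in late HL60 and -0.90 ± 0.18 (adjusted p 0.000487) in late ML1, but -0.16 and -0.082, not called, after rescaling to library totals. In HL60 ch+ it was -0.64 ± 0.18 (adjusted p 0.0469), lost without ctrl 374 or 375 or HL60 ch+ 524 (-0.64 to -0.45, adjusted p 0.107 to 0.26, also lost under rescaling to library totals and a fit of the compared groups alone). ML1 ch+ cells gave -0.40 ± 0.18 (adjusted p 0.265), with -0.24 ± 0.18 (adjusted p 0.819) for HL60 against ML1 ch+. *Lgr6* (ENSMUSG00000042793, chr1:134983301-135105276, minus strand), a second R-spondin receptor, is made by cells of the osteoblast line. *Lgr6* read 7.58, 7.43 and 6.68 in ctrl, 7.80, 7.70 and 6.76 in HL60 ch-, 6.13, 7.56 and 6.55 in HL60 ch+ and 6.89, 6.01 and 6.26 in late HL60. With ML1 as the leukemia, it read 7.80, 7.65 and 7.87 in ch-, 6.63, 6.18 and 6.17 in ch+ and 6.57, 6.28 and 5.32 in late libraries. ML1 ch- libraries had the highest mean and did not overlap ML1 ch+, while late HL60 overlapped ctrl and late ML1 did not. Between ML1 ch+ and ch- the difference was -1.45 ± 0.39 (adjusted p 0.0327), lost without ML1 ch+ 539 or 541 or ML1 ch- 543 (-1.43 to -1.37, adjusted p 0.1 to 0.117, also lost under no filter). In late ML1 it was -1.18 ± 0.39 (adjusted p 0.0319), lost without ctrl 373 or 374 or late ML1 583 (-1.07 to -0.81, adjusted p 0.103 to 0.227, also lost under rescaling to library totals), with -0.36 after the rescaling. Neither was called in HL60 hosts, at -0.67 ± 0.39 (adjusted p 0.502) and -0.84 ± 0.39 (adjusted p 0.193), and the direct tests gave 0.78 ± 0.55 (adjusted p 0.862) for the ch+ minus ch- difference and 0.33 ± 0.39 (adjusted p 0.918) for late cells.

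*Lrp5* (ENSMUSG00000024913, chr19:3584828-3686564, minus strand) encodes the Wnt co-receptor whose loss lowers bone mass. *Lrp5* read 10.70, 10.99 and 11.09 in ctrl, 10.41, 10.48 and 10.67 in HL60 ch-, 10.42, 10.53 and 10.52 in HL60 ch+ and 10.47, 10.44 and 10.17 in late HL60. In ML1 hosts the libraries read 10.70, 10.88 and 11.06 in ch-, 10.53, 10.64 and 10.95 in ch+ and 10.08, 10.23 and 10.31 in late. All 9 HL60 host libraries and the late ML1 libraries lay below each ctrl library, and early ML1 libraries overlapped ctrl. The late differences, -0.57 ± 0.15 (adjusted p 0.011) in HL60 and -0.72 ± 0.15 (adjusted p 0.000573) in ML1, were called with each library left out. After rescaling to library totals, which moved the median of all tested genes to 0.58 and 0.84, they were near 0 and not called, at 0.0041 (adjusted p 0.985) and 0.094 (adjusted p 0.593). Of receptors called once, *Fzd3* averaged 5.64 ± 0.06 (SD over 3 libraries) in ctrl and 6.53 ± 0.18 in late ML1, a rise of 0.89 ± 0.36 (adjusted p 0.0973) that was lost without ctrl 373, 374 or 375 or late ML1 581, 582 or 583 (0.79 to 0.97, adjusted p 0.139 to 0.254, also lost under a threshold of 0.05). Late HL60 gave 0.88 ± 0.36 (adjusted p 0.141), not called, and the direct test -0.01 ± 0.36 (adjusted p 0.999). *Fzd7* averaged 8.86 ± 0.28 in ctrl and 7.95 ± 0.27 in HL60 ch+, a difference of -0.91 ± 0.26 (adjusted p 0.047), lost without ctrl 375 or HL60 ch+ 525 (-0.76 to -0.75, adjusted p 0.191 to 0.2, also lost under no filter). HL60 ch- libraries were similarly low, at 8.02 ± 0.46, also below each ctrl library, with -0.84 ± 0.26 (adjusted p 0.149) against ctrl, not called, and -0.08 ± 0.26 (adjusted p 0.951) for ch+ against ch-. ML1 ch+ gave -0.51 ± 0.26 (adjusted p 0.334) and the direct test -0.40 ± 0.26 (adjusted p 0.771). *Fzd2*, *Fzd4*, *Fzd5*, *Fzd8*, *Lgr5* and *Lrp6* had no call in the 8 comparisons.

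Of the 4 R-spondins, *Rspo1* was below the filter and the other 3 were each called at least once. *Rspo3* was the most abundant in ctrl per kilobase of transcript, at 6.39 ± 0.41 log2 units per kb with the longest and 7.03 ± 0.41 with the median transcript. *Rspo4* (ENSMUSG00000032852, chr2:151842927-151874668, + strand) encodes a secreted R-spondin, known mainly for nail development. *Rspo4* read 6.30, 5.63 and 5.93 in ctrl, 6.35, 5.74 and 5.58 in HL60 ch-, 2.77, 2.78 and 2.66 in HL60 ch+ and 2.75, 3.93 and 2.89 in late HL60. For ML1 the values were 5.74, 4.76 and 4.52 in ch-, 2.86, 2.69 and 2.79 in ch+ and 3.34, 2.56 and 3.47 in late. All 12 ch+ and late libraries stood at or below 3.93, and all 9 ctrl and ch- libraries at or above 4.52. *Rspo4* fell by 3.22 ± 0.40 in HL60 ch+ (adjusted p 6.59e-06) and fell by 3.17 ± 0.40 in ML1 ch+ (adjusted p 5.58e-06) relative to ctrl. In late cells the differences were -2.76 ± 0.40 (adjusted p 1.06e-05) for HL60 and -2.83 ± 0.40 (adjusted p 3.02e-06) for ML1. Against ch- cells of the same leukemia, ch+ cells differed by -3.15 ± 0.40 (adjusted p 5.55e-06) in HL60 hosts and -2.22 ± 0.40 (adjusted p 0.000788) in ML1 hosts. These 6 calls held without each library in turn and under each other setting that tested the gene, but the filter at 50 counts left *Rspo4* out. The ch- cells were not called against ctrl, at -0.06 ± 0.40 (adjusted p 0.977) in HL60 and -0.95 ± 0.40 (adjusted p 0.296) in ML1 hosts. Regularization makes values near 2.56, the lowest, a compressed scale for this gene.

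*Rspo3*, the R-spondin most often linked to bone and vessels, read 8.32, 8.20 and 7.55 in ctrl, 9.43, 9.06 and 9.58 in late HL60 and 8.09, 8.08 and 8.09 in late ML1. Late HL60 libraries were above all of these others, and late ML1 overlapped ctrl. The rise in late HL60 was 1.34 ± 0.36 (adjusted p 0.0139), called with each library left out but not with all genes tested and no filter on low values. *Rspo2*, a close relative, read 5.86, 7.07 and 6.28 in ctrl, 6.03, 4.996 and 6.08 in late HL60 and 3.99, 5.24 and 4.96 in late ML1. Its late ML1 libraries lay below ctrl, and late HL60 overlapped it. Early ch+ libraries read 6.89, 7.76 and 6.03 in HL60 hosts and 6.34, 8.21 and 6.79 in ML1 hosts, not called against ctrl or ch- in either leukemia alone. Their means were 6.89 ± 0.86 and 7.12 ± 0.98, compared with 5.50 ± 0.78 and 5.78 ± 1.06 in ch-. With both leukemias pooled, *Rspo2* was called higher in ch+ than in ch- cells. The fall in late ML1 was -1.68 ± 0.55 (adjusted p 0.0329), lost without ctrl 374 or late ML1 581 (-1.34 to -1.31, adjusted p 0.158 to 0.178, also lost under no filter and rescaling to library totals), with -0.86 after the rescaling. Late HL60 gave -0.70 ± 0.55 (adjusted p 0.529), and the direct test gave 0.97 ± 0.55 (adjusted p 0.602).

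**Figure D2:**
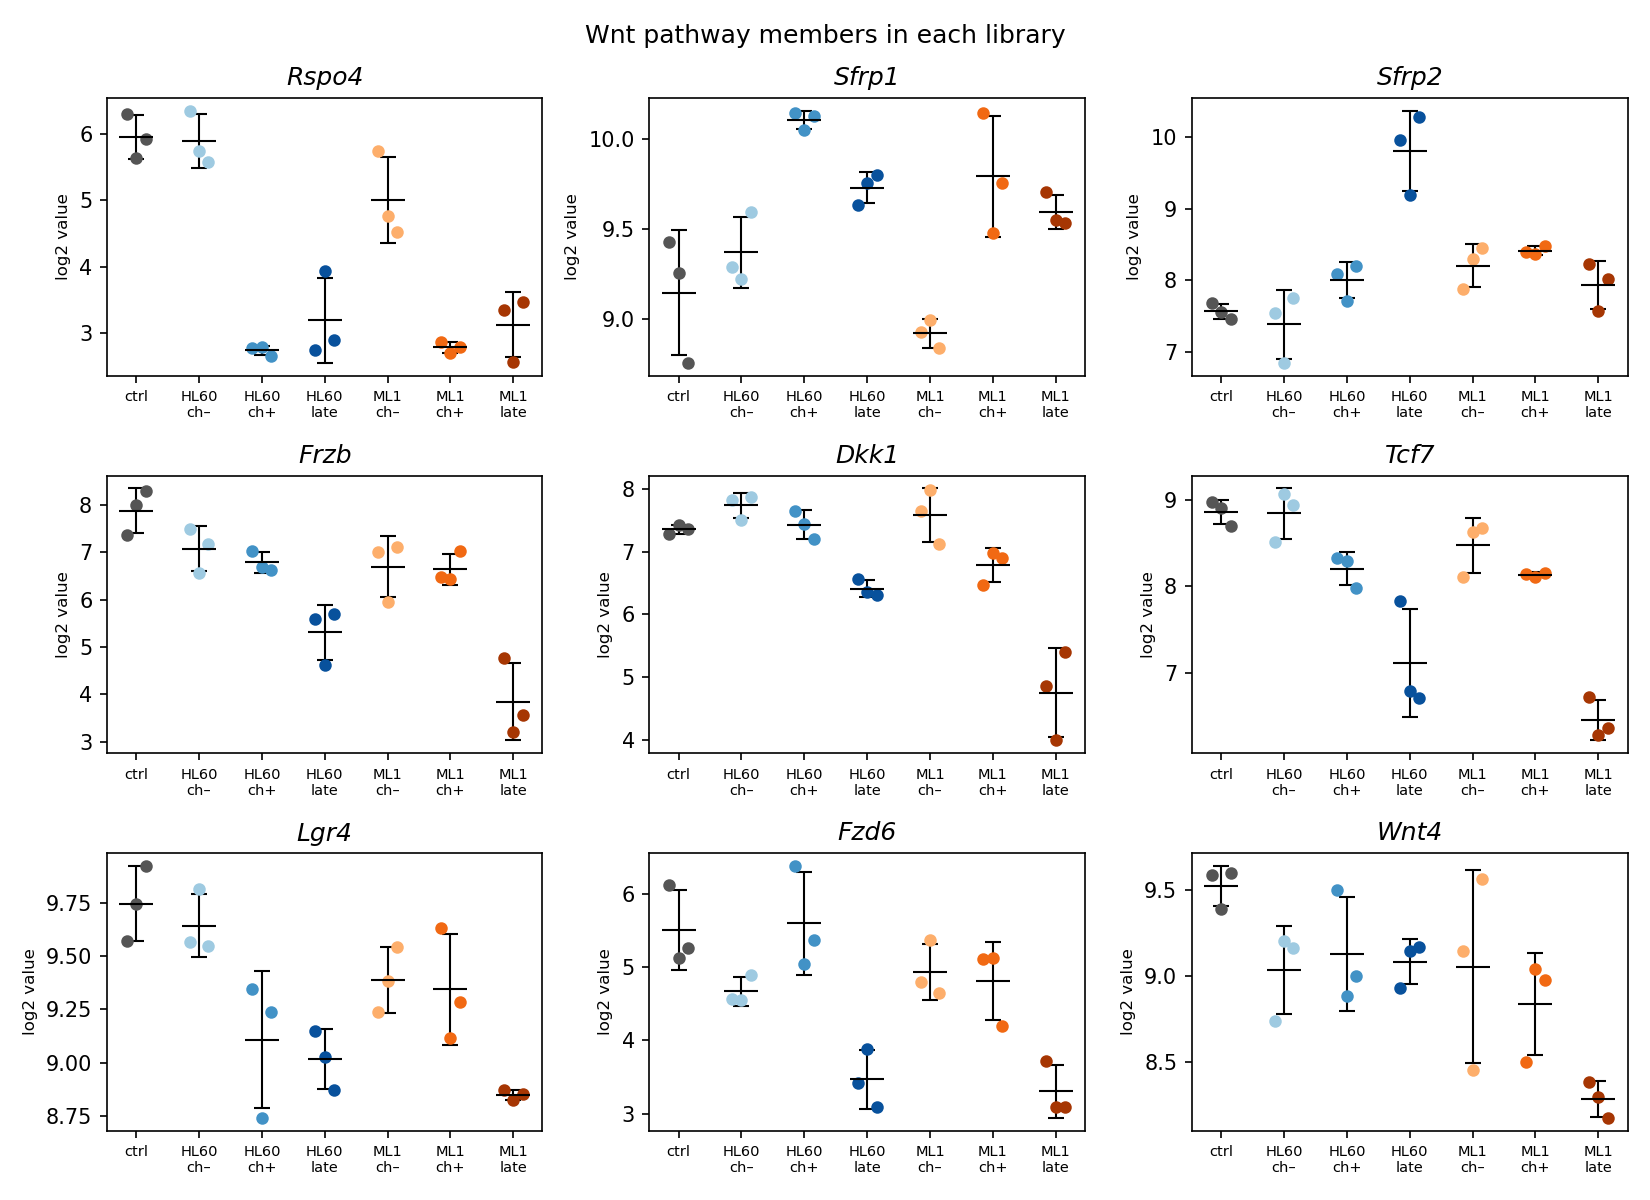
Log2 normalized counts (y axis) of 9 members in each of the 21 libraries, by group (x axis); dots are libraries and bars are the mean ± SD of 3. *Rspo4* is low in all ch+ and late libraries, and *Fzd6*, *Frzb* and *Tcf7* are lowest in the late ones.

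Secreted inhibitors numbered 11, and the 8 that passed the filter were each called at least once. Per kilobase *Sfrp4* was the most abundant in ctrl, 9.36 ± 0.46 log2 units per kb with the longest and 10.82 ± 0.46 with the median transcript. It also exceeded every other member on both length scales. *Sfrp4* (ENSMUSG00000021319, chr13:19623104-19632994, + strand) encodes a secreted decoy that binds Wnt ligands. *Sfrp4* read 11.75, 10.86 and 11.52 in ctrl, 11.71, 11.82 and 11.997 in HL60 ch-, 12.08, 11.63 and 11.88 in HL60 ch+ and 12.82, 11.92 and 12.998 in late HL60. The ML1 hosts gave 12.26, 12.17 and 12.32 in ch-, 12.12, 12.22 and 11.66 in ch+ and 12.51, 12.12 and 12.56 in late libraries. The lowest library was ctrl 374, and late libraries of both lines and ML1 ch- libraries lay above each ctrl library. *Sfrp4* rose by 1.21 ± 0.21 (adjusted p 0.000187) in late HL60 and 1.02 ± 0.21 (adjusted p 0.000654) in late ML1, both kept without each library in turn and under each other setting. In ML1 ch- the rise was 0.87 ± 0.21 (adjusted p 0.0303), lost without ctrl 374 (0.62, adjusted p 0.217, also lost under no filter). HL60 ch- cells gave 0.47 ± 0.21 (adjusted p 0.418), not called, and the direct test between ch- groups -0.41 ± 0.21 (adjusted p 0.754).

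*Sfrp1* (ENSMUSG00000031548, chr8:23411502-23449632, + strand) encodes a decoy of the same family. *Sfrp1* read 9.43, 9.26 and 8.76 in ctrl, 9.29, 9.23 and 9.60 in HL60 ch-, 10.14, 10.05 and 10.13 in HL60 ch+ and 9.64, 9.76 and 9.80 in late HL60. With ML1 as the leukemia, it read 8.93, 8.997 and 8.84 in ch-, 10.15, 9.48 and 9.76 in ch+ and 9.70, 9.55 and 9.53 in late libraries. In both lines every ch+ and late library exceeded each ctrl library, and ch+ did not overlap ch-. *Sfrp1* rose by 0.96 ± 0.18 (adjusted p 0.00152) in HL60 ch+ relative to ctrl, kept with each library left out, and by 0.65 ± 0.18 (adjusted p 0.0354) in ML1 ch+, lost without ctrl 375 or ML1 ch+ 538 (0.45 to 0.47, adjusted p 0.203 to 0.224, also lost under a fit of the compared groups alone). Against ch- cells the rise was 0.74 ± 0.18 (adjusted p 0.0193) in HL60 hosts, lost without HL60 ch- 528 (0.66, adjusted p 0.119). In ML1 hosts it was 0.88 ± 0.18 (adjusted p 0.00361), kept with each library left out. The late rises were 0.58 ± 0.18 (adjusted p 0.0354) in HL60, lost without ctrl 375 or late HL60 398 or 399 (0.39 to 0.57, adjusted p 0.104 to 0.248), and 0.45 ± 0.18 (adjusted p 0.0931) in ML1, lost without ctrl 374 or 375 or late ML1 581, 582 or 583 (0.25 to 0.50, adjusted p 0.102 to 0.436, also lost under no filter, a fit of the compared groups alone and a threshold of 0.05).

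*Sfrp2* (ENSMUSG00000027996, chr3:83766321-83774316, + strand), a further decoy, differed between the late cells of the leukemias. *Sfrp2* read 7.68, 7.56 and 7.46 in ctrl, 7.55, 6.85 and 7.76 in HL60 ch-, 8.09, 7.72 and 8.19 in HL60 ch+ and 9.96, 9.19 and 10.28 in late HL60. In ML1 hosts the libraries read 7.87, 8.29 and 8.45 in ch-, 8.40, 8.37 and 8.48 in ch+ and 8.23, 7.57 and 8.02 in late. Late HL60 libraries were the highest of all 21, and late ML1 overlapped ctrl. ML1 ch+, ML1 ch- and HL60 ch+ libraries were above each ctrl library. The rise in late HL60 was 2.24 ± 0.27 (adjusted p 4.89e-07), kept throughout, and late ML1 gave 0.37 ± 0.27 (adjusted p 0.402). In ML1 ch+ it was 0.85 ± 0.27 (adjusted p 0.066), lost without ctrl 374 or 375 or ML1 ch+ 538, 539 or 541 (0.80 to 0.87, adjusted p 0.127 to 0.163, also lost under no filter, a fit of the compared groups alone and a threshold of 0.05). HL60 ch+ cells gave 0.43 ± 0.27 (adjusted p 0.457), and HL60 against ML1 ch+ -0.41 ± 0.27 (adjusted p 0.764). *Frzb* (ENSMUSG00000027004, chr2:80411970-80447625, minus strand), also named Sfrp3, encodes a decoy first known from cartilage. *Frzb* read 7.35, 7.99 and 8.29 in ctrl, 7.49, 6.56 and 7.18 in HL60 ch-, 7.03, 6.70 and 6.63 in HL60 ch+ and 5.59, 4.63 and 5.70 in late HL60. For ML1 the values were 7.01, 5.95 and 7.11 in ch-, 6.47, 6.43 and 7.02 in ch+ and 4.76, 3.20 and 3.57 in late. The 6 late libraries were the lowest, below every early and ctrl library, and both ch+ groups and ML1 ch- also lay below ctrl. *Frzb* fell by 2.57 ± 0.42 in late HL60 (adjusted p 6.58e-05) and fell by 4.03 ± 0.42 in late ML1 (adjusted p 1.34e-08), both kept throughout. In ML1 ch+ the difference was -1.24 ± 0.42 (adjusted p 0.0984), lost without ctrl 374 or 375 or ML1 ch+ 538 or 539 (-1.18 to -1.03, adjusted p 0.211 to 0.291, also lost under no filter, quantile normalization, rescaling to library totals and a threshold of 0.05). HL60 ch+ gave -1.09 ± 0.42 (adjusted p 0.175) and the direct test between ch+ groups 0.14 ± 0.42 (adjusted p 0.963).

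*Dkk1* (ENSMUSG00000024868, chr19:30545863-30549665, minus strand) encodes the inhibitor that binds Lrp5 and Lrp6. *Dkk1* read 7.29, 7.42 and 7.36 in ctrl, 7.83, 7.51 and 7.87 in HL60 ch-, 7.65, 7.45 and 7.20 in HL60 ch+ and 6.57, 6.36 and 6.31 in late HL60. The ML1 hosts gave 7.64, 7.98 and 7.12 in ch-, 6.48, 6.99 and 6.91 in ch+ and 4.86, 3.99 and 5.41 in late libraries. Late ML1 libraries were the lowest, late HL60 libraries came between them and ctrl, and no group of the 3 overlapped another. ML1 ch+ libraries also lay below each ctrl library and HL60 ch- libraries above each, neither called. *Dkk1* fell in late ML1 by 2.61 ± 0.33 (adjusted p 3.84e-07), kept throughout. In late HL60 the difference was -0.94 ± 0.33 (adjusted p 0.0628), no longer called without ctrl 373, 374 or 375 or late HL60 398 or 399 (-0.98 to -0.89, adjusted p 0.101 to 0.173, also lost under rescaling to library totals and a threshold of 0.05), with -0.37 after the rescaling. *Dkk3* (ENSMUSG00000030772, chr7:112116017-112159057, minus strand) encodes a divergent Dkk protein whose effect on Wnt signalling varies with the cell. *Dkk3* read 8.56, 8.39 and 8.07 in ctrl, 8.60, 9.09 and 8.86 in HL60 ch-, 9.08, 8.95 and 8.60 in HL60 ch+ and 9.46, 9.22 and 9.84 in late HL60. With ML1 as the leukemia, it read 9.27, 9.21 and 9.04 in ch-, 8.69, 9.54 and 8.46 in ch+ and 8.93, 8.38 and 8.44 in late libraries. Late HL60, HL60 ch-, HL60 ch+ and ML1 ch- libraries were above each ctrl library, and late ML1 overlapped ctrl. The rise in late HL60 was 1.16 ± 0.24 (adjusted p 0.00105), kept throughout, with 0.24 ± 0.24 (adjusted p 0.58) in late ML1. In ML1 ch- it was 0.83 ± 0.24 (adjusted p 0.0817), lost without ctrl 374 or 375 or ML1 ch- 543, 544 or 546 (0.70 to 0.90, adjusted p 0.117 to 0.257, also lost under no filter, rescaling to library totals, a fit of the compared groups alone and a threshold of 0.05). HL60 ch- cells gave 0.51 ± 0.24 (adjusted p 0.439), and the direct test -0.32 ± 0.24 (adjusted p 0.843).

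*Notum* (ENSMUSG00000042988, chr11:120653788-120661175, minus strand) encodes a secreted enzyme that removes the lipid from Wnt ligands. *Notum* read 4.08, 4.39 and 4.002 in ctrl, 3.96, 4.66 and 4.03 in HL60 ch-, 2.78, 3.40 and 3.61 in HL60 ch+ and 2.95, 3.02 and 3.01 in late HL60. In ML1 hosts the libraries read 4.35, 2.93 and 3.92 in ch-, 3.17, 3.20 and 4.47 in ch+ and 2.66, 2.66 and 2.62 in late. Late libraries of both lines lay below ctrl and close to the lowest values of the gene, and ML1 ch- ranged widely. HL60 ch+ libraries also lay below each ctrl library but were not called. The difference was -1.16 ± 0.39 (adjusted p 0.055) in late HL60, lost without ctrl 374 or late HL60 397, 398 or 399 (-1.18 to -1.05, adjusted p 0.124 to 0.162, also lost under no filter, rescaling to library totals and a threshold of 0.05), and -1.51 ± 0.39 (adjusted p 0.00577) in late ML1, kept with each library left out. After rescaling to library totals neither was called, at -0.59 and -0.69. *Wif1*, a secreted protein that binds Wnt ligands, read 9.03, 8.91 and 9.35 in ctrl, 8.71, 8.66 and 8.37 in late HL60 and 7.71, 7.63 and 7.89 in late ML1. The late ML1 libraries were the lowest and late HL60 lay between them and ctrl without overlap. HL60 ch- libraries, at 9.67, 9.52 and 10.05, lay above each ctrl library but were not called, and the other early groups overlapped ctrl. *Wif1* fell in late ML1 by 1.36 ± 0.22 (adjusted p 2.2e-05), kept throughout, and the late HL60 difference of -0.52 ± 0.22 (adjusted p 0.148) was not called. The inhibitors below the filter were *Dkk2*, *Dkkl1* and *Sfrp5*, of which *Sfrp5* read 2.999, 2.56 and 3.18 in ctrl and at most 2.71 in any other library.

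The 4 intracellular feedback genes all passed the filter. Per kilobase *Nkd2* was highest in ctrl on both lengths, 6.03 ± 0.31 log2 units per kb with the longest transcript. *Nkd2* (ENSMUSG00000021567, chr13:73818534-73847631, minus strand) encodes a protein that binds Dishevelled and dampens the signal. *Nkd2* read 8.24, 7.68 and 8.17 in ctrl, 8.62, 9.20 and 8.87 in HL60 ch-, 9.20, 8.35 and 8.96 in HL60 ch+ and 9.49, 8.89 and 9.44 in late HL60. For ML1 the values were 8.35, 8.87 and 8.60 in ch-, 9.03, 8.39 and 8.20 in ch+ and 8.72, 9.04 and 9.33 in late. The ctrl libraries were the lowest, with ML1 ch+ 541 the single other library in their range. *Nkd2* rose by 1.24 ± 0.25 (adjusted p 0.00101) in late HL60 and 1.00 ± 0.25 (adjusted p 0.00492) in late ML1, both kept throughout. In HL60 ch+ the rise was 0.81 ± 0.25 (adjusted p 0.0792), lost without ctrl 374 or 375 or HL60 ch+ 523 or 525 (0.63 to 0.88, adjusted p 0.103 to 0.301, also lost under no filter, a fit of the compared groups alone and a threshold of 0.05). ML1 ch+ gave 0.51 ± 0.25 (adjusted p 0.32), and HL60 against ML1 ch+ 0.30 ± 0.25 (adjusted p 0.851). *Axin2*, a target and brake of beta-catenin signalling, averaged 5.73 ± 1.03 in ctrl, 6.77 ± 0.23 in late HL60 and 6.30 ± 0.54 in late ML1 (SD over 3 libraries), with ctrl libraries from 4.75 to 6.80 and overlap in each comparison. *Axin1*, *Axin2* and *Nkd1* had no call in the 8 comparisons.

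Of the 4 transcription factors, all tested, *Tcf7* and *Tcf7l2* were called against ctrl. *Tcf7l2* led in ctrl per kilobase of the longest transcript, 7.64 ± 0.17 log2 units per kb, within its spread of *Tcf7* at 7.55 ± 0.14, and *Tcf7l1* led with median lengths at 9.11 ± 0.48. *Tcf7* (ENSMUSG00000000782, chr11:52252371-52283014, minus strand) encodes a Tcf protein that binds beta-catenin. *Tcf7* read 8.97, 8.90 and 8.70 in ctrl, 8.51, 9.07 and 8.94 in HL60 ch-, 8.32, 8.29 and 7.98 in HL60 ch+ and 7.83, 6.79 and 6.71 in late HL60. The ML1 hosts gave 8.11, 8.63 and 8.67 in ch-, 8.14, 8.10 and 8.16 in ch+ and 6.72, 6.28 and 6.36 in late libraries. The 6 late libraries were the lowest of all 21, and the ch+ libraries of both lines lay between them and ctrl. *Tcf7* fell by 1.75 ± 0.26 in late HL60 (adjusted p 1.7e-05) and fell by 2.40 ± 0.26 in late ML1 (adjusted p 2.91e-08), both kept throughout. The ch+ differences were not called, at -0.66 ± 0.26 (adjusted p 0.194) in HL60 and -0.72 ± 0.26 (adjusted p 0.129) in ML1. *Tcf7l2* (ENSMUSG00000024985, chr19:55741820-55933654, + strand), a second factor of this kind, moved the other way. *Tcf7l2* read 9.53, 9.71 and 9.36 in ctrl, 9.39, 9.53 and 9.77 in HL60 ch-, 9.42, 9.38 and 9.30 in HL60 ch+ and 10.21, 10.30 and 10.11 in late HL60. With ML1 as the leukemia, it read 9.17, 10.11 and 9.86 in ch-, 10.15, 9.99 and 9.83 in ch+ and 9.89, 10.13 and 10.06 in late libraries. Late libraries of both lines and ML1 ch+ libraries were above each ctrl library. The rise was 0.67 ± 0.19 (adjusted p 0.0149) in late HL60, kept throughout, and 0.49 ± 0.19 (adjusted p 0.0657) in late ML1, lost without ctrl 373 or 375 or late ML1 582 or 583 (0.41 to 0.49, adjusted p 0.119 to 0.212, also lost under no filter and a threshold of 0.05). *Lef1* was not called against ctrl, at 0.49 ± 0.49 (adjusted p 0.638) in late HL60 and -1.13 ± 0.49 (adjusted p 0.122) in late ML1.

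Late HL60 and late ML1 cells were compared to ask which members differ between the leukemias themselves. *Sfrp2* differed most, by 1.87 ± 0.27 (adjusted p 1.54e-05), and *Dkk1* by 1.66 ± 0.33 (adjusted p 0.00139), both kept with each library left out and under each other setting. The other 6 were less stable. *Lef1* read 6.58, 6.26 and 5.81 in late HL60 and 3.88, 5.18 and 4.73 in late ML1, without overlap. Its difference was 1.62 ± 0.49 (adjusted p 0.0707), lost without late ML1 581 or 583 or late HL60 397 or 398 (1.26 to 1.69, adjusted p 0.155 to 0.393, also lost under no filter, rescaling to library totals and a threshold of 0.05). For *Frzb* the difference was 1.46 ± 0.42 (adjusted p 0.0512), with overlapping libraries, lost without late ML1 582 or 583 or late HL60 397 or 399 (1.14 to 1.33, adjusted p 0.222 to 0.334, also lost under no filter, rescaling to library totals and a threshold of 0.05). *Rspo3* differed by 1.27 ± 0.36 (adjusted p 0.0501), lost without late ML1 581, 582 or 583 or late HL60 397 or 399 (1.16 to 1.27, adjusted p 0.135 to 0.19, also lost under no filter, rescaling to library totals and a threshold of 0.05). *Dkk3* differed by 0.92 ± 0.24 (adjusted p 0.0242), lost without late ML1 582 or 583 or late HL60 399 (0.75 to 0.85, adjusted p 0.134 to 0.182, also lost under no filter and rescaling to library totals). *Wif1* differed by 0.84 ± 0.22 (adjusted p 0.0249), lost without late ML1 582 or late HL60 397 or 398 (0.77 to 0.80, adjusted p 0.11 to 0.126, also lost under rescaling to library totals). *Wnt4* differed by 0.80 ± 0.23 (adjusted p 0.0502), lost without late ML1 582 or 583 or late HL60 398 or 399 (0.74 to 0.80, adjusted p 0.128 to 0.204, also lost under no filter, rescaling to library totals and a threshold of 0.05). After rescaling to library totals these 6 were not called, at 1.38, 1.22, 1.02, 0.67, 0.59 and 0.55 in the same order.

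Over the 8 comparisons with ctrl or ch- and the late comparison of the leukemias there were 63 called pairs of member and comparison. Of these 33 were called with each library left out, 18 of them also under every other setting and 8 (6 of *Rspo4* and 2 of *Fzd6*) under all but the filter at 50 counts, which did not test these genes, and 30 were lost without at least 1 library. For late rises from ctrl, rescaling to library totals was hardly a check, as it moved late differences upward. By role, 8 of 14 receptors, 3 of 3 R-spondins, 8 of 8 secreted inhibitors, 2 of 7 ligands, 1 of 4 feedback genes and 2 of 4 transcription factors that were tested had a call in the 8 comparisons. In all 24 of 40 members did (60%), compared with 3792 of 12976 tested genes (29.2%).

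Other genes of the pathway were taken from lists of general knowledge and are given on the deposited scale, where 13.7% of all tested genes were called in late HL60 and 22% in late ML1. Of 12 tested genes for Wnt secretion and co-receptors, 3 higher and 2 lower were called in late HL60 (41.7%) and 2 higher and 2 lower in late ML1 (33.3%). Among them *Cthrc1*, a secreted Wnt cofactor, differed from ctrl by -1.27 and -3.47, *Lrp4* by -0.69 and -1.60 and the receptor *Ror1* by 1.54 and 1.11 in late HL60 and late ML1. Of 5 tested inhibitors outside the named families, 1 higher and 0 lower were called in late HL60 (20%) and 1 higher and 3 lower in late ML1 (80%), with *Igfbp4* at 0.74 and -0.53. Of 26 tested cytoplasmic transducers, 1 higher and 1 lower were called in late HL60 (7.69%) and 3 higher and 2 lower in late ML1 (19.2%). *Ctnnb1*, the gene of beta-catenin, differed by -0.61 in late HL60, -1.22 in late ML1, -0.71 in HL60 ch+ and -0.47 in ML1 ch+, and *Dact1*, which binds Dishevelled, by 1.82 and 1.53 in late cells. Nuclear cofactors gave 2 higher and 1 lower of 16 in late HL60 (18.8%) and 3 higher and 2 lower in late ML1 (31.2%), the co-repressor *Tle1* rising by 1.11 and 1.53. In the planar polarity and calcium branch, with 23 tested, 0 higher and 1 lower were called in late HL60 (4.35%) and 2 higher and 3 lower in late ML1 (21.7%), with *Prickle1* at -1.15 and -2.55.

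Of 16 tested textbook targets of beta-catenin, 1 higher and 4 lower were called in late HL60 (31.2%, median of the 16 -0.40), 3 higher and 10 lower in late ML1 (81.2%, median -0.87), 1 higher and 2 lower in HL60 ch+ (18.8%, with 5.33% of all genes called) and 2 higher and 2 lower in ML1 ch+ (25%, with 6.69% of all genes). In late HL60 and late ML1, *Ccn5* differed from ctrl by 2.48 and 2.86, *Bambi* by -1.31 and -2.58, and *Ccn4* by -0.99 and -2.11. Many of these genes have other regulators, and none of these lists measures signalling.

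Markers of several cell types moved with these results, and sums below are the summed normalized signal of a list in each library, in units of 1000. Chondrocyte markers summed to 227, 128 and 161 in ctrl, 144, 139 and 88.7 in HL60 ch-, 74.5, 57.3 and 54.7 in HL60 ch+ and 32.1, 29.5 and 22.5 in late HL60. In ML1 hosts they summed to 127, 104 and 94.5 in ML1 ch-, 56.7, 45.1 and 60.9 in ML1 ch+ and 7.81, 6.18 and 5.49 in late ML1. All 13 tested of 15 were lower in HL60 ch+, ML1 ch+ and both late groups than in ctrl (medians -3.19, -3.42, -2.77 and -4.48), with 0 and 1 lower in HL60 and ML1 ch-. Compared with ch- cells of the same leukemia, 11 were lower in HL60 ch+ and 13 in ML1 ch+ (medians -2.90 and -3.10). The most abundant was *Col11a1*, and *Matn1* and *Ihh* were below the filter. Ch+ and late libraries low in *Rspo4* were thus also low in this list, whose part in the *Rspo4*, *Frzb* and *Tcf7* results was not tested. Osteoblast and osteocyte markers summed to 1900, 2080 and 2570 in ctrl, 1610, 1900 and 1970 in HL60 ch-, 1590, 1420 and 1440 in HL60 ch+ and 764, 791 and 612 in late HL60. Their sums in ML1 hosts were 1800, 2090 and 2180 in ML1 ch-, 1530, 1460 and 1700 in ML1 ch+ and 198, 128 and 142 in late ML1. Of 14 tested, 10 were lower in late HL60, 12 in late ML1 and 5 in each ch+ group, while 1 was higher in late HL60 and 1 in ML1 ch-. Between late cells 12 were higher in HL60 than in ML1, as the 8 members of that comparison were. *Col1a1* was the most abundant and *Sost* was below the filter, and the part of these cells in the late results was not tested.

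The Nes low mesenchymal list, led by *Cxcl12*, summed to 76.4, 50.2 and 58.2 in ctrl, 79.8, 52.7 and 82.8 in HL60 ch-, 107, 85.4 and 104 in HL60 ch+ and 126, 148 and 119 in late HL60. For ML1 hosts the sums were 74.8, 99.8 and 95.1 in ML1 ch-, 123, 125 and 90.6 in ML1 ch+ and 124, 133 and 142 in late ML1. Of its 12 genes 8 were higher in late HL60, 9 in late ML1 (with 1 lower), 7 in HL60 ch+ and 8 in ML1 ch+. In ML1 ch- 6 were higher (median 0.58) and in HL60 ch- 1. *Sfrp1* was called higher than ctrl in both late and both ch+ groups, and the part of this list in that result was not tested. Smooth muscle markers, led by *Myh11*, summed to 14.6, 24 and 10.2 in ctrl, 10.7, 13.5 and 9.36 in HL60 ch-, 4.19, 3.66 and 2.44 in HL60 ch+ and 7.66, 6.11 and 7.5 in late HL60. In the ML1 arm these were 9.33, 10.1 and 7.21 in ML1 ch-, 2.82, 2.99 and 2.96 in ML1 ch+ and 6.49, 3.9 and 5.11 in late ML1. 7 and 6 of 10 were lower in HL60 and ML1 ch+ than in ctrl, 7 and 5 lower than in ch-, and 4 and 5 lower in late HL60 and late ML1 than in ctrl. Blood markers, led by *Lyz2*, summed to 0.505, 0.309 and 0.44 in ctrl, 1.64, 1.68 and 1.36 in HL60 ch-, 1.57, 2.31 and 1.01 in HL60 ch+ and 0.246, 0.312 and 0.174 in late HL60. Their ML1 sums were 1.63, 2.13 and 2.66 in ML1 ch-, 2.08, 1.09 and 2.27 in ML1 ch+ and 0.156, 0.231 and 0.218 in late ML1. Of 7 tested, 5 and 6 were higher in HL60 and ML1 ch+ and 4 and 6 in ch-, and 1 and 2 lower in late cells, with *Cd52*, *Laptm5*, *Coro1a* and *Tyrobp* below the filter. Red cell markers, led by *Hbb-bs*, summed to 0.345, 0.457 and 0.715 in ctrl, 7.67, 7.85 and 5.13 in HL60 ch-, 8.78, 13 and 4.4 in HL60 ch+ and 0.155, 0.132 and 0.112 in late HL60. The ML1 libraries had 7.37, 10.3 and 7.94 in ML1 ch-, 11.7, 5.92 and 8.36 in ML1 ch+ and 0.122, 0.106 and 0.143 in late ML1. Of 9 tested, 7 and 8 were higher in HL60 and ML1 ch+, 7 and 8 in ch-, and 4 and 4 lower in late cells.

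Skeletal muscle markers, led by *Ttn*, summed to 0.28, 0.239 and 0.245 in ctrl, 0.532, 0.355 and 0.836 in HL60 ch-, 0.499, 0.344 and 0.603 in HL60 ch+ and 0.168, 0.155 and 0.0917 in late HL60. ML1 libraries gave 0.541, 0.302 and 0.482 in ML1 ch-, 0.671, 0.922 and 0.925 in ML1 ch+ and 0.103, 0.129 and 0.117 in late ML1. Of 6 tested, 4 and 5 were higher in HL60 and ML1 ch+, 2 and 1 in ch-, and 2 and 2 lower in late cells, and *Myh1*, *Myh2*, *Myh4* and *Tnni2* were below the filter. Endothelial markers, led by *Eng*, summed to 0.765, 0.642 and 0.784 in ctrl, 0.59, 0.602 and 0.851 in HL60 ch-, 1.08, 1.02 and 1.24 in HL60 ch+ and 1.06, 0.878 and 0.882 in late HL60. The ML1 values were 0.691, 0.719 and 0.918 in ML1 ch-, 0.904, 0.597 and 0.691 in ML1 ch+ and 0.737, 0.707 and 0.818 in late ML1. Of 8 tested, 5 were lower in late ML1 and 1 was higher in each of late HL60 and HL60 ch+, and *Tie1*, *Egfl7* and *Cldn5* were below the filter. By the methods of the study blood cells were depleted and the rest stained for CD45, Ter119 and CD31 before the sort. The part of these cell types in the results for the Wnt genes was not tested.

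**Figure D3:**
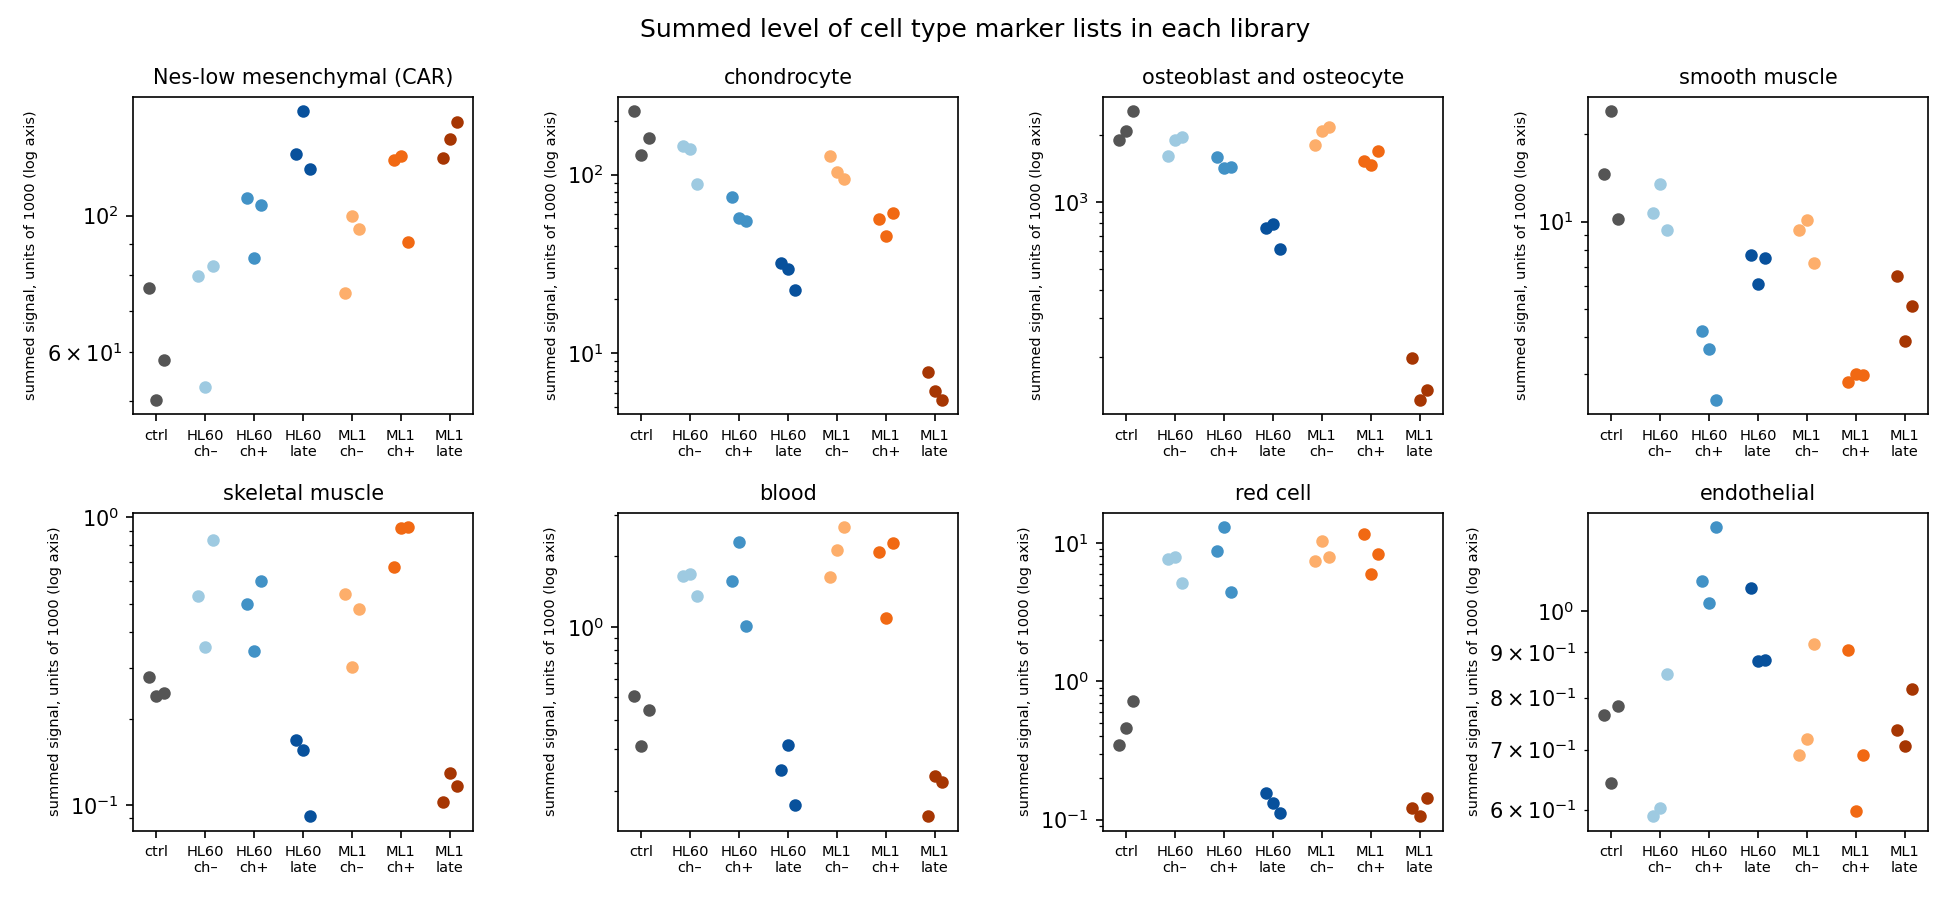
Summed normalized signal in units of 1000 (y axis, log scale) of 8 marker lists in each of the 21 libraries, by group (x axis); dots are libraries. Chondrocyte sums are lowest in late ML1, and red cell and blood sums are higher in early than in ctrl libraries.

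Promoter sequence was available for 37 of the 54 members, from RefSeq on build GRCm38.p6, and the 250 bases before each annotated start were searched on both strands for CTTTGAT and CTTTGAA, the core letters bound by Tcf and Lef proteins. Some of these windows overlapped annotated exons, with all 250 bases for *Fzd5*, *Fzd10* and *Dkkl1*, so not every window is upstream of its gene. Of 45 member promoters 3 held a match (6.67%), belonging to *Dkk1*, *Wnt5b* and *Wnt11*, compared with 2457 of 32851 promoters in all (7.48%). The *Dkk1* window had 169 bases in exons, and its match lay inside the gene interval given above. The *Wnt5b* and *Wnt11* windows with a match had 0 bases in exons. Among promoters of tested members it was 3 of 33 (9.09%), with 2 of 19 (10.5%) for those called in the 8 comparisons and 1 of 14 (7.14%) for those not called. Shown are the promoters of *Rspo4*, the member that fell in all ch+ and late groups (chr2:151842677-151842926, + strand), of *Sfrp2*, which differed most between late leukemias (chr3:83766071-83766320, + strand), and 1 of 3 starts of *Wnt5b*, which holds a match (chr6:119449387-119449636, minus strand). Capitals mark the match, and none was present in the first 2. The letters describe the sequence and show no binding.
Rspo4: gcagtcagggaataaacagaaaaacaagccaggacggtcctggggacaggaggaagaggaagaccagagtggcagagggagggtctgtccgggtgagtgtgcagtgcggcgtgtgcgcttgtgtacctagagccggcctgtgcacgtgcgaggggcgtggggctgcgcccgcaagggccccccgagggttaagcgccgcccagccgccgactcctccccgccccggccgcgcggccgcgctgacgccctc
Sfrp2: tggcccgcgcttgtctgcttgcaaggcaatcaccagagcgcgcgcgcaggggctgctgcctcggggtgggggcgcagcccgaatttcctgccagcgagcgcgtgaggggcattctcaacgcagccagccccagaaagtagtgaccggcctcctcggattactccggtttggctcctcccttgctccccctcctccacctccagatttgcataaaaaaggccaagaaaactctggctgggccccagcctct
Wnt5b: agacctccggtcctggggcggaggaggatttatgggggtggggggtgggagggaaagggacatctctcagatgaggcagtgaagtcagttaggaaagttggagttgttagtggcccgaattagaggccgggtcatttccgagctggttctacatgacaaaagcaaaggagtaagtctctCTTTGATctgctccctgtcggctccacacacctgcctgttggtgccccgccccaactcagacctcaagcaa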

How the data were processed

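Bulk RNA sequencing libraries of sorted Nes low mesenchymal cells were made from 21 samples in 7 groups of 3. Per the labels, reads were aligned with STAR 2.5.1b and quantified with RSEM 1.2.29 on the mm10 build. The deposited log2 values were scaled by the authors with DESeq2 median of ratios and regularized, and range from -2.33 to 22.44. The file states no unit, and log2 was read from the range because the methods of the study name a log10 transformation that these values cannot be. The table holds no raw counts, so the read depth of a library is unknown and no counting interval is given.

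Genes were matched to symbols by Ensembl id in GENCODE M21. Those with a mean of at least 3.32 (12976 genes) were tested in 1 limma 3.58.1 fit (R 4.3.3, 7 group means, empirical Bayes with a trend, two-sided), with Benjamini-Hochberg adjustment over all of them and a threshold of 0.1. There were 12 comparisons, each described by its own counts. Alternatives were no filter, a filter at 50 counts, quantile normalization, rescaling to library totals, a fit of the compared groups alone, a threshold of 0.05, leaving out each library, and both leukemias pooled. Per-kilobase levels subtract the log2 of transcript length in kb. Values in every library are given for members called in at least 2 of the 8 comparisons with ctrl or ch-, other members by range, call or count, and at most 5 genes of each other pathway list. *Wnt5a*, *Wif1*, *Rspo2*, *Rspo3*, *Lef1*, *Axin2*, *Wnt5b* and *Sfrp5* values, and those of *Igfbp4*, *Dact1*, *Tle1* and *Prickle1*, were chosen after they were seen. Members and lists were chosen with earlier results of these data known. Ch+ and ch- cells came out of shared marrows, but no label links their libraries and replicate numbers are not shared across groups, so they were tested as independent groups without pairing.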

Additional observations from a re-analysis of the deposited data

Results flagged for a closer look

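8 members differed between the leukemias by a direct limma test of late HL60 against late ML1 cells, and each was higher in HL60. They were 20% of the tested members, with 4.09% of all tested genes called. The log2 differences were 1.87 for *Sfrp2* (adjusted p 1.54e-05), 1.66 for *Dkk1* (adjusted p 0.00139), 1.62 for *Lef1* (adjusted p 0.0707), 1.46 for *Frzb* (adjusted p 0.0512), 1.27 for *Rspo3* (adjusted p 0.0501), 0.92 for *Dkk3* (adjusted p 0.0242), 0.84 for *Wif1* (adjusted p 0.0249) and 0.80 for *Wnt4* (adjusted p 0.0502). Among all genes called in that comparison 410 of 531 were higher in HL60 on the deposited scale, but 37% of 705 after rescaling to library totals. On the deposited scale 12 of 14 tested osteoblast and osteocyte markers and 8 of 13 chondrocyte markers were higher in HL60, and the part of those cells in the result was not tested. Leukemia line and host cohort cannot be told apart, since each line has 1 set of late hosts. *Sfrp2* and *Dkk1* were called without each library in turn and under each other setting tried. The others were each lost without at least 1 library and after rescaling to library totals, which left 2 members called. Leaving out 1 library left 3 to 6.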

How the results depend on the processing

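The count of called members stayed within 1.5 times its value under quantile normalization in each of the 12 comparisons. Without a filter on low values it was 3 in ML1 ch+, 1 in HL60 ch- and 0 in ML1 ch- against ctrl (by limma, with 8 members at an unadjusted p under 0.05 under the filter), and 3 for late HL60 against late ML1. The member gained in HL60 ch- was *Sfrp5* (-1.26, adjusted p 0.079), which lay below the filter and was called lower without it in both late and both ch+ groups too. A filter at 50 counts left 1 for HL60 ch+ against ch-, since it did not test *Rspo4* and *Fzd9*. Rescaling to library totals gave 26 in late HL60, 1 in ML1 ch- and 2 for late HL60 against late ML1, and turned the late *Lrp5* differences to 0.0041 in HL60 and 0.094 in ML1, near 0 and not called. Fitting the compared groups alone gave 3 in HL60 ch+, 3 in ML1 ch+ and 1 in ML1 ch-. A threshold of 0.05 left 2 in ML1 ch+, 1 in ML1 ch- and 4 for late HL60 against late ML1. With both leukemias pooled the counts were 3 for ch+ and 0 for ch- against ctrl (5 at an unadjusted p under 0.05), where 9 and 2 were called in either line, and 21 for late, where 23 were called in either line and 20 of them in the pooled fit too. For ch+ against ch- the pooled count was 4, with 2 higher and 2 lower (6.26% of all genes called), where 4 were called in either line. *Rspo2*, higher in ch+, was called there in the pooled fit alone. Causes of these shifts were not tested.

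Leaving out each library in turn gave 14 to 17 called members in late HL60, 15 to 18 in late ML1, 2 to 3 for HL60 ch+ against ch- and 2 to 4 for ML1 ch+ against ch-. It gave 3 to 7 in HL60 ch+ (3 without ctrl 374, ctrl 375 or HL60 ch+ 525), 1 to 6 in ML1 ch+ (1 without ML1 ch+ 538, 2 without ML1 ch+ 539, ctrl 374 or ctrl 375), 0 to 2 in ML1 ch- (0 without ctrl 374, 1 without ctrl 375 or any ML1 ch- library) and 3 to 6 for late HL60 against late ML1 (3 without ML1 582 or 583, 4 without HL60 397 or 399, 5 without HL60 398). Of the 63 called single values, 19 were no longer called after rescaling to library totals besides the 2 *Lrp5* values, 21 without a filter, 17 at a threshold of 0.05, 8 with the compared groups alone and 2 under quantile normalization. The filter at 50 counts did not test 14 of them (*Rspo4*, *Fzd6*, *Fzd9*, *Notum*, *Wnt5b* and *Lef1*) and kept the other 49. Per-kilobase leaders changed with the median transcript length to *Lrp6* among receptors (within its spread of *Lrp5*) and *Tcf7l1* among transcription factors. Regularization limits low values most, and the depth of each library is unknown.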
